A study of Mus musculus with 8 samples.

Results

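The high-numbered Zfp genes are mouse zinc finger genes whose symbol is Zfp followed by a number of 3 digits that starts with 6, 7, 8 or 9, with or without a letter after it. They were chosen by symbol and gene type alone: of the 17127 genes in the deposited table, 131 are protein coding and carry such a symbol. The GENCODE annotation of GRCm39 holds 187 protein-coding genes of this kind, and the other 56 are not analysed here. All 131 reached the minimum used for testing, which was 2.2 CPM (reads scaled to a library total of 1000000) in 2 or more libraries of a group, but 8 of them reached it in the mutant libraries only and 1 (Zfp990) in the wild-type libraries only.

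The libraries were made from whole testes of adult mice, 4 months old, in a study of Iqch, a gene for a protein with a calmodulin-binding IQ motif that is expressed in testis. The controls were 4 wild-type mice, and the mutants were 3 Iqch-/- mice, numbered 1, 2 and 4, with 1 library for each mouse. The mutation was made with Cas9 in B6CBAF1 (C57BL/6xCBA) zygotes, giving 2 edited lines with frameshift deletions that were used as homozygotes. The study describes its mutant RNA-seq coverage of Iqch as that of the Iqchmu7 line, while the labels give the genotype of each library without the line, and the strain background of each mouse at the genes described is not given in the sources used here. Mutant 3 is not analysed here; the authors dropped 1 mutant library that they judged to be an outlier.

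Most zinc finger proteins of this kind are transcription factors in which a row of C2H2 zinc fingers, each folded around a zinc ion by 2 cysteines and 2 histidines, reads the DNA sequence. Many also carry a KRAB domain, which recruits the co-repressor Trim28 and through it the histone methyltransferase Setdb1 and heterochromatin proteins, and a well-known task of such proteins is the silencing of retrotransposons. The genes arose by repeated local duplication and therefore stand in clusters, in which neighbours share long stretches of sequence.

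All but 6 of the 131 members encoded at least 1 match to the C2H2 pattern in their canonical transcript, with a median of 11 fingers and a maximum of 30 in Zfp729b. The 6 were Zfp608, Zfp609, Zfp703, Zfp704, Zfp839 and Zfp957. A KRAB A-box pattern was found in 64 members, and a protein without a match may still hold a KRAB domain in other letters. Among the 175 lower-numbered Zfp genes of the table (Zfp with a number below 600), 168 held fingers, with a median of 9, and 47 matched the KRAB pattern. Near-identical copies bear on the counting of reads: a read from a stretch of exon that also occurs elsewhere in the genome cannot be placed by its own sequence, although the mate of a read pair may place it. In 77 members none of the exonic stretches of that length recurred in GRCm39, and in 14 members 10% or more of them did. A second copy inside the same gene also counts as a recurrence here and below.

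Zfp990 and the members downstream of it on chromosome 4 are similar in sequence. The 63 bases of the first finger of Zfp990 and the most similar finger of each of the other 7 members are given below from GRCm39, on the strand of the gene, with the codons of the 2 cysteines and 2 histidines in capitals; they are shown because reads from Zfp990 have to be told from reads of these neighbours.
Zfp990, finger 1, chr4:145263727-145263789, plus strand: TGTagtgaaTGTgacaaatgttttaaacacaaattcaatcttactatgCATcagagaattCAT
Zfp992, finger 1, chr4:146551004-146551066, plus strand: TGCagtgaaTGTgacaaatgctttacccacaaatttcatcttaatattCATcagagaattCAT
Zfp981, finger 1, chr4:146621797-146621859, plus strand: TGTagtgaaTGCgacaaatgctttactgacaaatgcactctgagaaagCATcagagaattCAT
Zfp991, finger 1, chr4:147263348-147263410, plus strand: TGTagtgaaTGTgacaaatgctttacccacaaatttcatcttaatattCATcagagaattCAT
Zfp982, finger 3, chr4:147597290-147597352, plus strand: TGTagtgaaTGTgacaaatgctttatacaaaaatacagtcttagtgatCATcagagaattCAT
Zfp979, finger 2, chr4:147697703-147697765, minus strand: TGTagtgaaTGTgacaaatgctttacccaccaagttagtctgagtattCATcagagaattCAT
Zfp984, finger 2, chr4:147839986-147840048, minus strand: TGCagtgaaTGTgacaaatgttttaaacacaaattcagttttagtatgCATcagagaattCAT
Zfp933, finger 8, chr4:147910548-147910610, minus strand: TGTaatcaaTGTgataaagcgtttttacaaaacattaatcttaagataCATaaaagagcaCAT

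The finger of Zfp984 differed from that of Zfp990 at 4 of 63 bases, and the finger of Zfp933 at 20. The others differed at 7 (Zfp991), 8 (Zfp992), 9 (Zfp982), 10 (Zfp979) and 11 (Zfp981) bases. The 13 fingers of Zfp990 differed among themselves at 0 to 14 bases, with a median of 11. These differences between genes, except that of Zfp933, lay within the range found inside Zfp990. They come from the most similar finger of each gene, so they do not compare the fingers of the genes as a whole. Protein identity to Zfp990, which has 605 amino acids, was taken over the aligned residues only, with gaps left out. It was 86.7% over 547 residues in Zfp984, 82.7% over 573 in Zfp991 and 82.5% over 573 in Zfp992. Lower values were found in Zfp982 (75.3% over 368), Zfp981 (71.2% over 445), Zfp979 (68.7% over 390) and Zfp933 (50.0% over 468). Despite this similarity, 2.04% of the read-length stretches of Zfp990's own exons recurred in the genome, inside or outside Zfp990. The share was 78.8% in Zfp991, 52.2% in Zfp979, 48.2% in Zfp992, 25.0% in Zfp984, 21.4% in Zfp982, 9.97% in Zfp981 and 0% in Zfp933.

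The libraries held between 32064384 and 37551057 reads on the genes of the table, with 1 step of the CPM scale taken as 1 read. Iqch itself was at 193 to 217 CPM in wild-type testes and at 64.8 to 69.2 CPM in mutant testes (log2 fold change -1.62, SE 0.05, limma FDR 1.9e-10). Cell type markers moved between the groups. Of 24 measured markers of 5 somatic cell types, 18 were called higher and 0 lower by limma (20 and 0 at an unadjusted p under 0.05). After rescaling the libraries with size factors, 16 were called higher and 0 lower. Of all genes tested, 36.3% were called higher and 14.2% lower, or 27% and 25.1% with size factors. The summed level of the Leydig list went from 997 to 1202 CPM in wild type to 4214 to 4393 CPM in mutants. The summed level of the Sertoli list was 963 to 1045 CPM in wild type and 2031 to 2160 CPM in mutants, that of the macrophage list 24.3 to 28.5 and 88.5 to 101 CPM, that of the endothelial list 12.4 to 15.9 and 28.6 to 29.7 CPM, and that of the peritubular myoid list 62.1 to 85 and 69.7 to 94.8 CPM. Of 23 markers of 4 germ cell stages, 5 were called higher and 11 lower (1 and 14 after rescaling the libraries with size factors), and the elongating spermatid list fell from 21418 to 22655 CPM in wild type to 13570 to 15635 CPM in mutants. The spermatogonia list summed to 110 to 121 CPM in wild type and 161 to 189 CPM in mutants, the spermatocyte list to 960 to 987 and 894 to 960 CPM, and the round spermatid list to 982 to 1065 and 858 to 915 CPM. In whole tissue, fewer cells of a type and less RNA per cell cannot be told apart, and the part of these shifts in the results on the Zfp genes was not tested.

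The median member stood at 9.20 CPM in wild-type testes, with a range from 1.09 CPM to 452 CPM. Per kilobase of exon, the median level of the members was 1.55 CPM in wild type, that of the lower-numbered Zfp genes was 1.71 CPM, and members with the KRAB pattern had a median of 1.20 CPM against 2.16 CPM without it. The 5 members with the highest wild-type level per kilobase were Zfp654 (59.4 CPM per kb), Zfp956 (36.5 CPM per kb), Zfp646 (25.2 CPM per kb), Zfp830 (20.7 CPM per kb) and Zfp768 (16.2 CPM per kb). Zfp956 was the only one of these 5 that was called, and it fell.

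Zfp956, with 6 fingers, was measured at 113, 119, 113 and 121 CPM in wild type and at 92.4, 95.2 and 89.1 CPM in mutants. All mutant values lay below all wild-type values (log2 fold change -0.34, SE 0.05, limma FDR 3.5e-05). Zfp654 was at 442, 461, 490 and 414 CPM in wild type and 405, 394 and 419 CPM in mutants, and the groups overlapped (-0.15, FDR 0.024). Zfp646, with 27 fingers, was at 274, 267, 284 and 252 CPM against 247, 238 and 246 CPM, without overlap, and did not pass the test (-0.14, FDR 0.016). Zfp830, known as Omcg1 and needed for early embryonic development, was at 32.9, 32.2, 35.2 and 31.7 CPM against 29.7, 29.6 and 30.5 CPM (-0.14, FDR 0.050). Zfp768 was at 42.6, 42.8, 42.4 and 36.7 CPM against 41.9, 41.5 and 45.7 CPM (0.07, FDR 0.40). The differences in Zfp654, Zfp646 and Zfp830 passed the test as decreases when the libraries were rescaled with size factors, at log2 values of -0.29, -0.28 and -0.27, and those in Zfp654 and Zfp646 also without wild type 4, at -0.19 and -0.17.

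**Figure D1:**
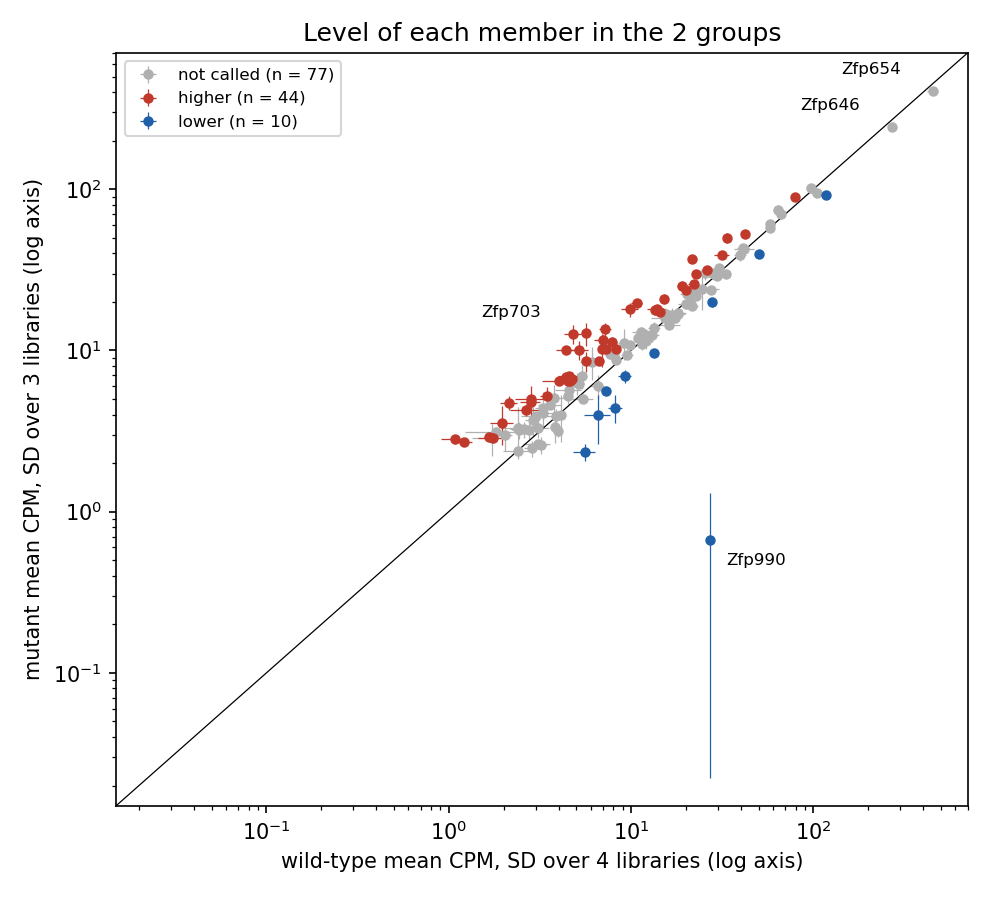
Mean CPM of each of the 131 members in wild-type testes (x axis, 4 libraries) and mutant testes (y axis, 3 libraries), both on log axes, with the SD as bars and the line of equal level. The 44 members called higher lie above the line, the 10 called lower below it, and Zfp990 lies far below all others.

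The comparison of mutant with wild-type testes asks how this family of DNA-binding proteins was expressed when Iqch was mutated. Of the 131 members, 44 rose and 10 fell in the mutants at an FDR of 0.01 (limma on log2(CPM + 0.1), adjusted over the 17126 genes tested), and 77 were not called. The share called was 41.2% of the members, while 50.4% of all genes tested were called, 36.3% as higher and 14.2% as lower. The members' shares in the same directions were 33.6% and 7.63%. Of all protein-coding genes, the type of every member, 41.5% were called higher and 12.7% lower, with a median log2 fold change of 0.176. The median log2 fold change was 0.205 over the members, 0.180 over the lower-numbered Zfp genes, of which 66 of 175 rose and 11 fell, and 0.121 over all genes tested. With the 9 members that reached the minimum in 1 group only set aside, 39 of 122 rose and 9 fell, or 24 and 17 after rescaling with size factors.

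The deposited values carry no factor between libraries, and rescaling with size factors lowered the median of all genes from 0.121 to -0.013. On that scale 27 members were called higher and 18 lower, where 27% and 25.1% of all genes were, 52.1% in all; the 27 were all among the 44, and the 10 called lower were all among the 18. The lower-numbered Zfp genes gave 44 higher and 29 lower on that scale. Counting from the median of all genes, the median member stood 0.084 higher on the log2 scale. The median protein-coding gene stood 0.054 higher on the same count. Without mutant 2, 29 members were called higher in place of 44.

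Most differences were small. Of the 54 called members, 23 had a log2 fold change between -0.5 and 0.5, and 6 rose and 2 fell by more than 2-fold, which is 4.58% and 1.53% of the members beside 8.79% and 1.22% of all genes tested. The 2 groups of libraries were apart, with no overlap, in 75 members (57.3%) and in 62.3% of all genes. Of the 64 members with the KRAB pattern, 20 rose (31.25%) and 8 fell (12.5%), beside 36.3% and 14.2% of all genes tested. Of the 67 without it, 24 rose (35.8%) and 2 fell (2.99%). The counts of rises and falls were 10 and 10 with the pattern and 17 and 8 without it after rescaling with size factors.

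The largest increase was in Zfp703, a co-repressor of the NET family known as ZNF703 in human breast cancer, which held no C2H2 match. It was measured at 4.46, 4.37, 4.78 and 5.49 CPM in wild type and at 14.5, 11.3 and 12.3 CPM in mutants, so every mutant lay above every wild-type library (log2 fold change 1.39, SE 0.12, limma FDR 5.6e-07). Zfp605, with 12 fingers, was at 1.11, 1.19, 1.22 and 0.826 CPM against 2.76, 3.03 and 2.67 CPM (1.31, SE 0.19, FDR 5.3e-05). It reached the minimum in the mutants only.

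Zfp945, with 18 fingers, rose from 4.49, 3.67, 4.99 and 4.50 CPM to 9.42, 10.1 and 10.5 CPM (log2 fold change 1.17, SE 0.12, limma FDR 2.5e-06). Zfp932, which lies on chromosome 5 and has 15 fingers, rose from 5.36, 6.0, 5.66 and 5.70 CPM to 10.7, 14.9 and 12.7 CPM (1.15, SE 0.11, FDR 2.3e-06), and 16.3% of its read-length exonic stretches recur in the genome. Zfp874a rose from 2.00, 2.39, 1.89 and 2.26 CPM to 4.19, 5.08 and 4.98 CPM (1.12, SE 0.14, FDR 2.4e-05). In each of these genes the gap between the groups was larger than the range of either group.

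Zfp983 stood at 1.04 to 1.34 CPM in wild type and 2.59 to 2.84 CPM in mutants, Zfp950 at 4.61 to 5.78 and 8.48 to 11.1 CPM, and Zfp869 at 6.70 to 7.91 and 12.5 to 14.9 CPM. Zfp839 stood at 10.01 to 11.7 CPM in wild type and 18.7 to 20.3 CPM in mutants, and Zfp871 at 8.33 to 10.8 and 16.03 to 19.6 CPM. The log2 fold changes of these 5 ran from 0.86 in Zfp871 to 1.09 in Zfp983, which reached the minimum in the mutants only. All 10 of these increases were also called after rescaling with size factors and with any 1 library left out.

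The largest decrease was in Zfp990, described with its neighbours below, and the next was in Zfp998 on chromosome 13, which encodes 14 fingers and a KRAB pattern. Zfp998 was at 5.18, 6.76, 5.14 and 5.33 CPM in wild type and at 2.38, 2.03 and 2.58 CPM in mutants, with no overlap (log2 fold change -1.23, SE 0.14, limma FDR 9.5e-06). Of its read-length exonic stretches, 16.6% recur in the genome.

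Zfp949 fell from 28.7, 28.3, 26.5 and 27.7 CPM to 19.0, 19.1 and 21.5 CPM (log2 fold change -0.48, SE 0.07, limma FDR 3.8e-05). Zfp868 fell from 13.3, 13.5, 13.0 and 13.5 CPM to 9.34, 9.67 and 10.01 CPM (-0.46, SE 0.07, FDR 1.5e-04), and Zfp672 from 47.6, 49.6, 52.8 and 50.4 CPM to 37.4, 40.7 and 40.9 CPM (-0.34, SE 0.06, FDR 2.1e-04). These differences are well beyond the spread of the libraries, and 1.15%, 2.48% and 0% of the stretches recur in Zfp868, Zfp949 and Zfp672.

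Zfp941, with 10 fingers, fell from 8.52 to 10.3 CPM in wild type to 6.27 to 7.44 CPM in mutants (log2 fold change -0.42, limma FDR 0.0032), and was not called without wild type 1 (-0.36) or mutant 4 (-0.35). Zfp729a, with 27 fingers, fell from 6.93 to 7.83 CPM to 5.25 to 5.86 CPM (-0.38, FDR 0.0048), and was not called without wild type 3 (-0.38) or 4 (-0.34), or mutant 1 (-0.38) or 4 (-0.34). Both decreases were called after rescaling with size factors.

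**Figure D2:**
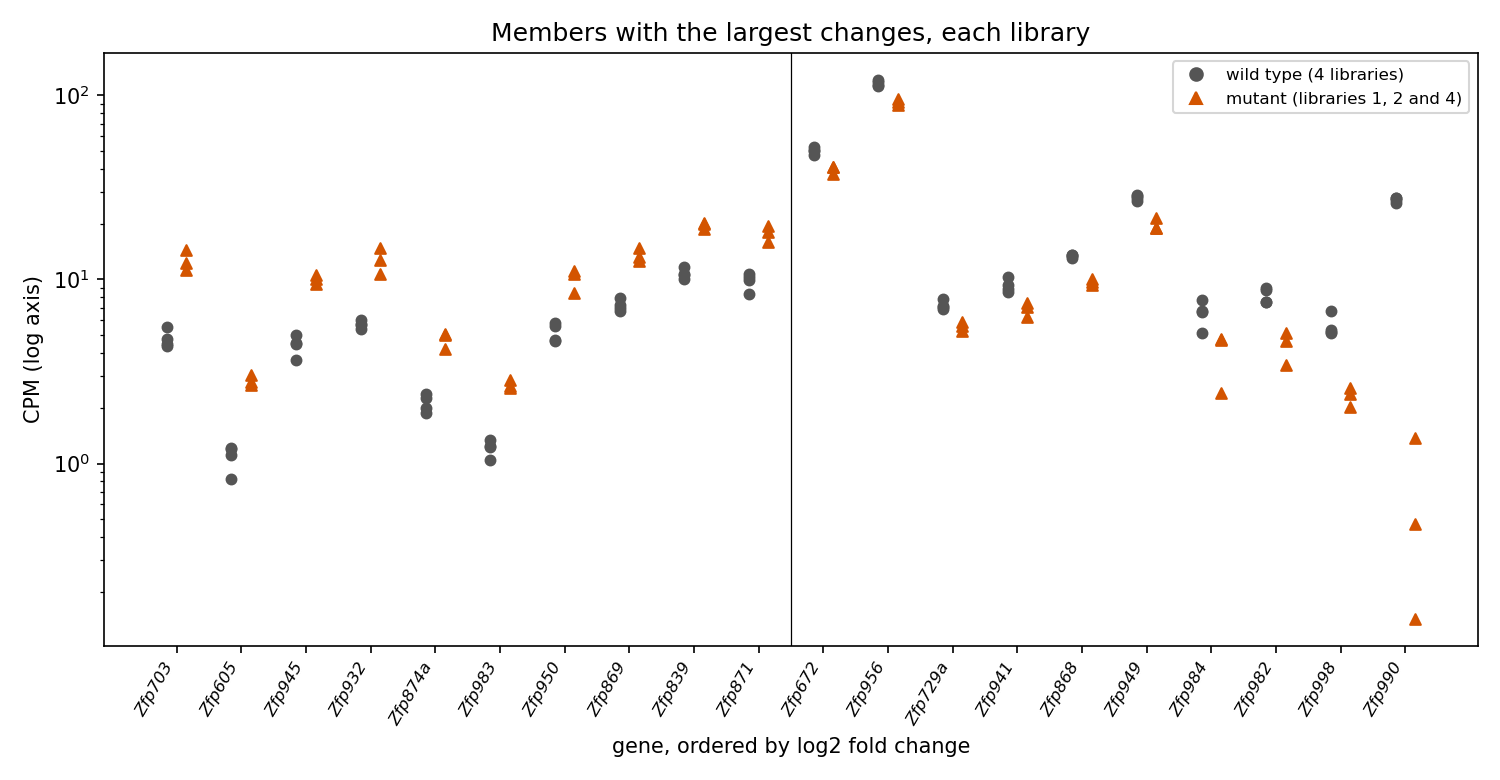
CPM of each library (y axis, log scale) for the 10 members with the largest called increases and the 10 with the largest called decreases, ordered by log2 fold change (x axis), with wild-type libraries as circles and mutant libraries as triangles. The triangles lie above all circles in the left 10 genes and below them in the right 10, and those of Zfp990 range from 0.144 to 1.38 CPM.

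With members joined when the gap between neighbours was at most 1 Mb, 76 of the 131 fell into 12 clusters of 3 or more, on chromosomes 4, 6, 7, 8, 9, 13 and 17, and 55 lay outside them. Clusters are given by their span in GRCm39, and genes of a cluster other than its highest and lowest were named after their values were seen. Medians, highest and lowest below are log2 fold changes, to be read against the median of 0.121 over all genes, or 0.176 over protein-coding genes. Counts of members called are to be read against 36.3% higher and 14.2% lower of all genes, or 41.5% and 12.7% of protein-coding genes. No cluster was tested as a set.

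On chromosome 17 between 21.6 and 23.1 Mb, the largest cluster, with 12 members, had a median of 0.36. Zfp945, Zfp983 and Zfp760 rose and 9 were not called by limma, and no member had a decrease at an unadjusted p under 0.05. In 3 of the members, Zfp948, Zfp983 and Zfp760, the minimum was reached in the mutants only. These entered the test only through their mutant levels, which favours increases. Zfp760 was at 1.57 to 2.24 CPM in wild type and at 2.44, 4.12 and 4.15 CPM in mutants (0.80, limma FDR 0.0041), and was not called without wild type 2 (0.71), mutant 2 (0.68) or mutant 4 (0.68), nor with size factors. The lowest was Zfp758, at 5.99 to 7.27 CPM against 5.26 to 7.14 CPM (-0.13, FDR 0.39).

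Zfp820, a gene of the same cluster, is named by the study for a switch between isoforms, which levels per gene do not measure. Its level was 27.5, 31.3, 18.7 and 20.6 CPM in wild type and 18.8, 22.4 and 31.4 CPM in mutants. The groups overlapped over nearly their whole range (log2 fold change -0.02, SE 0.18, limma FDR 0.92), and the libraries within each group differed more than in most members: the range over the 4 wild-type libraries was 0.74 on the log2 scale, where the median member had 0.243.

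The second cluster of chromosome 17, between 33.0 and 33.5 Mb, had 7 members with a median of 0.47; Zfp871, Zfp870 and Zfp952 rose. Zfp870 was at 1.59 to 1.81 CPM in wild type and 2.71 to 3.02 CPM in mutants (0.77, limma FDR 6.7e-04), and Zfp952 at 4.07 to 4.996 and 5.90 to 7.05 CPM (0.47, FDR 0.0033). Zfp870 reached the minimum in the mutants only. Zfp952 was not called without mutant 1 (0.47) or mutant 2 (0.41), nor with size factors. The lowest was Zfp955b (-0.18, FDR 0.059), at 19.9 to 23.8 CPM against 17.9 to 19.5 CPM, which passed the test as lower with size factors (-0.31).

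On chromosome 13 between 66.6 and 67.8 Mb, changes went both ways: of 9 members, 4 rose, 2 fell and the median was 0.025. Zfp874a, Zfp738, Zfp748 and Zfp759 rose and Zfp998 and Zfp729a fell. Zfp738, with 20 fingers, rose from 7.27 to 8.23 CPM to 10.4 to 12.1 CPM (0.52, limma FDR 3.1e-04). The increases of Zfp748 (0.38) and Zfp759 (0.23) were not called with size factors, that of Zfp748 also not without mutant 2 (0.37) or 4 (0.35), and that of Zfp759 was called in 1 of the 7 fits that left out a library, in which its values ran from 0.19 to 0.26. Zfp729b, the neighbour of Zfp729a and the member with the most fingers, was at 3.41 to 4.37 CPM in wild type and 3.56 to 4.34 CPM in mutants (0.025, FDR 0.88).

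Chromosome 8 held 2 clusters. Between 69.7 and 70.2 Mb, Zfp869 and Zfp866 rose, Zfp868 fell and Zfp930 was not called (median 0.55). Zfp868 and Zfp869, next to each other, thus differed in direction, at -0.46 and 0.90. Zfp866 rose from 12.9 to 14.6 CPM to 16.3 to 18.95 CPM (0.39, limma FDR 8.4e-04), a call that was lost with size factors (0.26). Between 72.6 and 72.8 Mb all 3 members rose: Zfp709 from 3.02 to 4.87 CPM to 6.21 to 6.67 CPM (0.68, FDR 0.0018), Zfp617 from 5.42 to 5.89 CPM to 7.30 to 9.79 CPM (0.57, FDR 6.7e-04) and Zfp961 from 4.52 to 4.95 CPM to 6.03 to 7.33 CPM (0.48, FDR 0.0019). The increase of Zfp961 was not called with size factors (0.34) or without mutant 2 (0.41), and 23.9% of the stretches of Zfp617 recur in the genome.

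Chromosome 7 carried the most members, 33, in 4 clusters and outside them. Between 6.13 and 7.21 Mb the median of 4 members was 0.54, and Zfp787, Zfp772 and Zfp954 rose while Zfp667 did not pass the test (0.06, limma FDR 0.64). Zfp787 rose from 17.8 to 20.2 CPM to 24.02 to 27.04 CPM (0.40, FDR 3.7e-04), Zfp772 from 2.09 to 3.30 CPM to 3.94 to 4.68 CPM (0.68, FDR 0.0026), and Zfp954 from 1.37 to 2.04 CPM to 2.73 to 2.93 CPM (0.69, FDR 0.0034). Zfp772 was not called without mutant 2 (0.62), and Zfp954 not without mutant 2 (0.67) or 4 (0.68) nor with size factors (0.56). Zfp954 reached the minimum in the mutants only.

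In the chromosome 7 cluster between 27.4 and 27.7 Mb, 1 of 6 members, Zfp607a, rose, from 3.70 to 5.33 CPM to 6.29 to 6.54 CPM (0.51, limma FDR 0.0041), and the median was -0.05. Its call was lost without wild type 2 (0.49), mutant 1 (0.53), mutant 2 (0.51) or mutant 4 (0.50) and with size factors (0.38). The lowest, Zfp780b, was at 25.9 to 28.7 CPM in wild type and 22.9 to 24.7 CPM in mutants (-0.21, FDR 0.011) and passed the test with size factors (-0.35) and without wild type 3 (-0.23).

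None of the 8 members between 41.3 and 43.3 Mb on chromosome 7 was called by limma under either scaling, 1 (Zfp976) had an unadjusted p under 0.05, and the median was 0.08. The differences ran from -0.11 in Zfp936 to 0.40 in Zfp976 (limma FDR 0.66 and 0.048). Zfp936 was at 3.86 to 4.37 CPM in wild type and at 4.65, 4.80 and 2.49 CPM in mutants, with mutant 4 below and the other mutants above all wild-type values. Zfp976 was at 3.29 to 4.29 CPM in wild type and at 3.85, 5.61 and 5.68 CPM in mutants, and passed the test without mutant 1 (0.58).

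Between 126.8 and 127.8 Mb on chromosome 7, Zfp771 and Zfp688 rose among 8 members with a median of 0.05. Zfp771 rose from 21.6 to 23.7 CPM to 29.6 to 30.4 CPM (0.41, limma FDR 5.9e-05). Zfp688 rose from 13.1 to 15.4 CPM to 16.9 to 17.8 CPM (0.26, FDR 0.0085), was called in 1 of the 7 fits that left out a library, with values from 0.219 to 0.295, and was not called with size factors (0.13). The lowest was Zfp696, at 13.6 to 19.3 CPM against 13.98 to 14.97 CPM (-0.15, FDR 0.22).

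In the chromosome 6 cluster between 47.8 and 48.6 Mb, Zfp777 rose and Zfp956 fell among 5 members with a median of 0.07. Zfp777 went from 7.73 to 8.76 CPM to 9.97 to 10.9 CPM (0.32, limma FDR 0.0066), was called in 1 of the 7 fits that left out a library, with values from 0.28 to 0.35, and was not called with size factors (0.19). The highest was Zfp775 (0.33, FDR 0.075), at 2.71 to 3.26 CPM against 3.24 to 4.55 CPM.

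The chromosome 9 cluster between 21.97 and 22.22 Mb held Zfp653, Zfp809 and Zfp810. Zfp809, which silences murine leukaemia viruses by binding their primer binding site, was at 10.5, 11.2, 11.4 and 10.8 CPM in wild type and 11.4, 13.0 and 11.5 CPM in mutants and was not called (0.12, SE 0.08, limma FDR 0.20). Zfp653 was at 29.1 to 31.3 CPM in wild type and 31.3 to 34.2 CPM in mutants (0.10, FDR 0.15), a direction that flipped with size factors (-0.04), as did that of Zfp809 (-0.01). Zfp810 rose from 4.07 to 4.79 CPM to 6.38 to 7.03 CPM (0.63, FDR 2.9e-04).

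**Figure D3:**
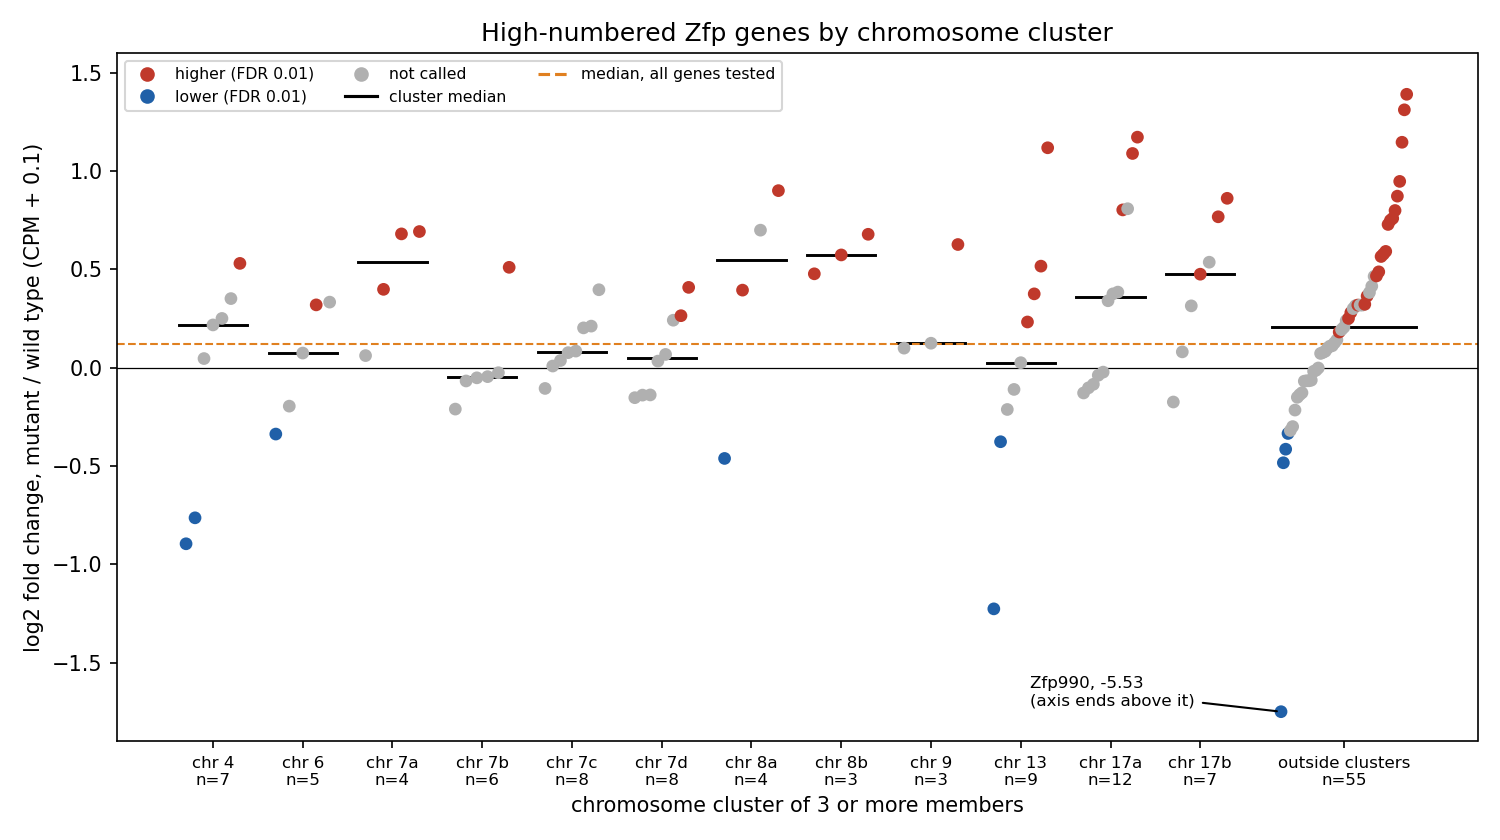
Log2 fold change of each member (y axis, mutant over wild type) in the 12 clusters of 3 or more members, lettered in order along a chromosome, and outside clusters (x axis), coloured by call, with black bars at the median of each set and a dashed line at the median of all genes, 0.121. Points of one cluster spread widely, most in the chromosome 13 cluster, from -1.23 to 1.12, and Zfp990 at -5.53 is drawn at the lower edge.

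Zfp990 is an exception in size. It lies on the plus strand of chromosome 4 from 145237287 to 145269397 and encodes a protein of 605 amino acids with the KRAB pattern and 13 fingers, all in the stretch from 145263727 to 145264797. Wild-type testes held it at 27.2, 27.6, 25.9 and 27.6 CPM, or 909, 948, 851 and 1038 reads. Mutants 1, 2 and 4 held it at 0.144, 0.468 and 1.38 CPM, or 5, 15 and 45 reads.

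All mutants thus lay far below all wild-type libraries, and they differed among themselves by more than any other member did, by 2.60 on the log2 scale against a median of 0.188 over the members. The fitted log2 fold change was -5.53 (SE 0.41, limma FDR 2.0e-07) on the log2(CPM + 0.1) scale. An exact permutation test over all 35 ways of dividing the 7 libraries into 3 and 4, two-sided, gave p = 0.029, the smallest value this design allows (0.057 from the doubled smaller tail). Every gene whose groups do not overlap gets that doubled tail, and 62.3% of all genes had no overlap. The permutation test therefore does not set Zfp990 apart. The log2 fold change moved with the pseudocount, to -4.145 with 1 and -5.856 with 0.01, and ran from -6.19 without mutant 4 to -4.89 without mutant 1.

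Within 2 Mb of Zfp990 the table holds 25 other genes, 10 of them protein coding, including the members Zfp992, Zfp981 and Zfp991. Of the 25, 5 rose and 3 fell, or 32.0%, beside 50.4% of all genes, and their median was -0.036. Of the 10 protein-coding ones, 4 rose and 2 fell, or 60%, beside 54.2% of all protein-coding genes. None of the pseudogenes among the 25 was called. With size factors 4 of the 25 rose and 5 fell.

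On the side before Zfp990, where 9 genes lie, Tnfrsf1b, the gene for TNF receptor 2, rose from 2.72, 1.84, 2.22 and 2.45 CPM to 9.37, 8.79 and 9.28 CPM (log2 fold change 1.95, SE 0.14, limma FDR 1.5e-07). Dhrs3, a retinaldehyde reductase, rose from 6.79, 9.76, 8.22 and 7.78 CPM to 20.5, 19.9 and 24.2 CPM (1.4, SE 0.12, FDR 5.1e-07). Vps13d, a lipid transfer protein, rose from 36.7 to 45.4 CPM to 59.9 to 66.3 CPM (0.66, FDR 4.4e-06), and Tnfrsf8, the gene for CD30, fell from 4.70 to 6.39 CPM to 2.03 to 2.79 CPM (-1.15, FDR 3.1e-05). No exonic stretch of read length recurs elsewhere in any of these 4 genes.

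The other 5 genes on that side were not called. Smarca5-ps, the nearest at 43.3 kb, was at 13.0 to 13.7 CPM in wild type and 13.0 to 15.1 CPM in mutants (0.05, limma FDR 0.58), a direction that flipped with size factors (-0.08). Gm13123 (-0.12), Pramel13 (-0.29), Cfap107 (-0.15) and Gm13127 (-0.05) had an FDR of 0.19, 0.087, 0.10 and 0.39, and Cfap107 (-0.29) and Gm13127 (-0.18) passed the test as lower with size factors.

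On the side after Zfp990, where 16 genes lie, the lncRNA 4933438K21Rik fell from 16.7, 19.4, 19.0 and 18.1 CPM to 6.38, 7.86 and 5.68 CPM (log2 fold change -1.46, SE 0.11, limma FDR 1.8e-07). The lncRNA 1700095A21Rik rose from 24.7, 21.9, 21.1 and 26.7 CPM to 37.8, 38.02 and 38.2 CPM (0.69, SE 0.08, FDR 7.8e-06). Rex2, another zinc finger gene, fell from 3.47 to 4.39 CPM to 2.03 to 2.71 CPM (-0.67, FDR 0.0018), and was not called without mutant 4 (-0.58). The share of read-length stretches that recur in the genome was 37.8%, 42.5% and 74.0% in these 3 genes, so their reads could be shared with copies where these lie in other genes. The spans of 4933438K21Rik and Rex2 also overlap on opposite strands, as do those of 1700095A21Rik and Zfp981. The strand setting of the counts is not given, and sharing of reads between these genes was not tested.

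Zfp991 was the fourth of these genes to be called. It was at 7.18, 7.22, 6.73 and 6.604 CPM in wild type and at 11.2, 12.01 and 7.56 CPM in mutants, with mutant 4 just above the highest wild-type library (log2 fold change 0.53, SE 0.14, limma FDR 0.0051). The call was lost without wild type 3 (0.52) or 4 (0.51), without mutant 1 (0.45) or 2 (0.40), and with size factors (0.40).

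In several other genes on this side mutants 1 and 2 were alike and mutant 4 was not. The lncRNA Gm13165 was at 6.64, 4.63, 4.11 and 5.62 CPM in wild type and at 1.52, 1.43 and 6.30 CPM in mutants (log2 fold change -1.06, SE 0.39, limma FDR 0.031), and was called without mutant 4 (-1.74). Gm13165 reached the minimum in the wild-type libraries only, so it entered the test through their level, which favours decreases. Zfp992 was at 8.32, 9.09, 9.28 and 10.1 CPM in wild type and at 12.5, 12.5 and 8.35 CPM in mutants (0.25, SE 0.14, FDR 0.12), and was called without mutant 4 (0.44). The pseudogene Znf41-ps was at 13.2, 16.05, 15.2 and 13.5 CPM in wild type and at 21.3, 23.2 and 12.2 CPM in mutants (0.33, SE 0.17, FDR 0.11), and was called without mutant 4 (0.62).

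Gm13241 was at 2.24 to 2.98 CPM in wild type and at 4.40, 3.49 and 1.84 CPM in mutants (0.19, limma FDR 0.50). Its mutants 1 and 2 were less alike, but both lay above all wild-type libraries. These 4 genes were picked after their values were seen, and the share of their read-length stretches that recur in the genome was 65.9% in Gm13165, 48.2% in Zfp992, 70.6% in Znf41-ps and 46.0% in Gm13241. A gene with mutant 4 inside the wild-type range and mutants 1 and 2 both outside it on 1 side occurred 3 times among the 25 neighbours (Cfap107, Gm13165 and Zfp992) and in 3.95% of all genes tested. The same pattern with mutant 1 inside the range also occurred 3 times among the neighbours (Gm13123, Gm13127 and Gm13243) and in 5.73% of all genes, and with mutant 2 it occurred 0 times among the neighbours and in 3.84% of all genes. The part of the strain background at these genes was not tested.

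Zfp981 was at 7.66 to 8.31 CPM in wild type and 9.09 to 9.61 CPM in mutants, without overlap, and did not pass the test (0.22, limma FDR 0.038). Gm13231, Gm13243, Gm13034, Gm13237, Gm13140, Gm13142 and Gm13162, pseudogenes at 1.81 to 20.1 CPM, were not called, with log2 fold changes between -0.28 and 0.20. In Gm13140 mutant 4 also stood apart, at 5.19 CPM, above mutants 1 and 2 (3.28 and 3.24 CPM) and wild type (3.03 to 3.68 CPM).

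The chromosome 4 cluster proper lies between 146.5 and 147.9 Mb, and Zfp990 stands 1264 kb before its first member in the table, Zfp992. With a gap of up to 2 Mb allowed, Zfp990 joins it in a group of 8. Of the 7 members of the cluster, Zfp991 rose, Zfp982 and Zfp984 fell and 4 were not called, with a median of 0.22.

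Zfp982, with 7 fingers and the KRAB pattern, fell from 7.54, 8.94, 7.55 and 8.73 CPM to 5.11, 4.65 and 3.44 CPM (log2 fold change -0.90, SE 0.14, limma FDR 1.0e-04). Zfp984, the member with the highest identity to Zfp990 over aligned residues, went from 5.15, 7.75, 6.63 and 6.76 CPM to 4.74, 4.71 and 2.43 CPM (-0.76, SE 0.21, FDR 0.0074). In both, mutant 4 was the lowest library, and every mutant lay below every wild-type library. The call on Zfp984 was lost without wild type 2 (-0.68), 3 (-0.75) or 4 (-0.75) and without mutant 4 (-0.45), while Zfp982 was called in all 7 fits that left out a library.

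Zfp979 was at 5.16 to 5.84 CPM in wild type and at 5.86, 6.86 and 8.23 CPM in mutants, with mutant 4 the highest (0.35, limma FDR 0.025). Zfp933, whose exons hold no recurring stretch, was at 11.7 to 12.3 CPM in wild type and at 12.7, 13.4 and 11.3 CPM in mutants, and the groups overlapped (0.05, FDR 0.64).

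**Figure D4:**
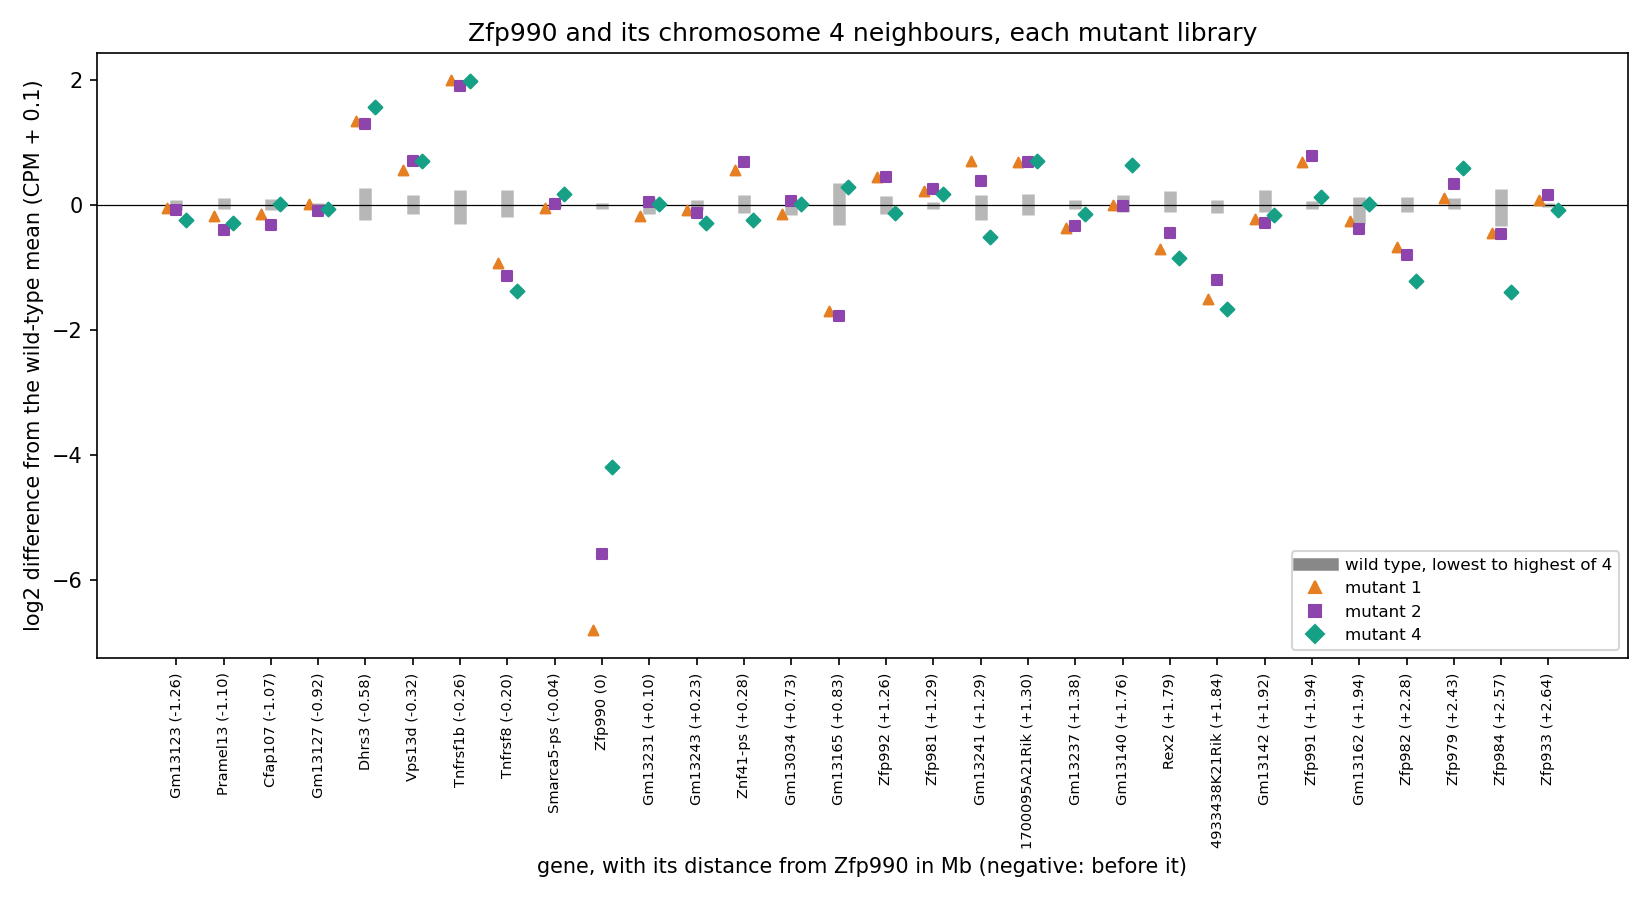
Log2 difference of each mutant library from the wild-type mean on the log2(CPM + 0.1) scale (y axis) for Zfp990, the 25 genes within 2 Mb of it and the remaining members of the chromosome 4 cluster, in order along the chromosome with the distance from Zfp990 in Mb (x axis); grey bars run from the lowest to the highest wild-type library. Zfp990 lies lowest in all mutants, and mutant 4 (diamonds) stands apart from mutants 1 and 2 in genes such as Gm13165, Znf41-ps, Gm13241, Zfp992 and Gm13140.

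The other genes of the pathway were taken from a list of 17 that work with KRAB zinc finger proteins or on the silent chromatin they set up, all of which were in the table. Of these, 4 rose and 2 fell, or 35.3% beside the 50.4% of all genes and 54.2% of protein-coding genes. Their median log2 fold change was 0.167. With size factors the counts were 1 and 2.

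Trim28, the scaffold that KRAB domains bind, was at 412, 409, 391.5 and 401 CPM in wild type and 359, 372 and 375 CPM in mutants, without overlap (log2 fold change -0.13, SE 0.04, limma FDR 0.0084). It was called in 1 of the 7 fits that left out a library, with values from -0.145 to -0.112, and was called with size factors, at -0.265 (FDR 7.0e-05). Setdb1, the methyltransferase recruited by Trim28, was at 63.8 to 69.8 CPM in wild type and 74.1 to 76.6 CPM in mutants (0.19, FDR 0.0033), and was not called without wild type 2 (0.17), mutant 1 (0.19) or mutant 2 (0.19) nor with size factors (0.06).

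Among the heterochromatin proteins, Cbx1 rose from 42.6 to 43.7 CPM to 48.0 to 53.7 CPM (0.22, limma FDR 0.0026), while Cbx3 (0.14, FDR 0.28) and Cbx5 (0.17, FDR 0.023) did not pass. Cbx1 was not called without mutant 2 (0.18) nor with size factors (0.09), and Cbx5 was called without wild type 4 (0.22). Smarcad1, a chromatin remodeller that acts with Trim28, rose from 18.3 to 20.8 CPM to 22.9 to 26.2 CPM (0.34, FDR 0.0013), a call lost with size factors (0.21).

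Of the DNA methylation genes, Dnmt3a, a de novo methyltransferase, rose from 20.9, 21.8, 24.01 and 22.05 CPM to 29.7, 33.7 and 28.2 CPM (log2 fold change 0.46, SE 0.08, limma FDR 1.8e-04), and this was the only increase of the list called with size factors. Uhrf1, which brings Dnmt1 to replicated DNA, fell from 84.3 to 91.2 CPM to 74.6 to 77.7 CPM (-0.20, FDR 0.0019) and was not called without mutant 2 (-0.18). Dnmt1 (0.19, FDR 0.036) and Dnmt3b (0.21, FDR 0.089) did not pass, and Dnmt1 was called without wild type 4 (0.25).

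Atf7ip, a partner of Setdb1 (0.17, limma FDR 0.011), the HUSH subunits Tasor (0.23, FDR 0.018), Mphosph8 (0.03, FDR 0.73) and Pphln1 (0.14, FDR 0.068) and the associated ATPase Morc2a (0.12, FDR 0.032) were not called. Tasor was called without wild type 3 (0.28) or mutant 1 (0.30) and Atf7ip without wild type 3 (0.20), and the values of Mphosph8 (-0.11) and Morc2a (-0.01) turned negative with size factors. Zfp57, the KRAB zinc finger protein that protects imprints, was at 20.6 to 26.6 CPM in wild type and 22.1 to 26.5 CPM in mutants (-0.02, FDR 0.85), and Zfp42, known as Rex1, at 10.7 to 13.8 and 12.04 to 14.6 CPM (0.16, FDR 0.20).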

How the data were processed

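RNA was measured by RNA-seq in testes of 4 wild-type and 3 Iqch-/- mice. The authors trimmed with Trimmomatic, aligned with Subread to the GRCm39 build, counted by gene with featureCounts and kept genes with 75 reads in at least 2 samples of either group; the strand setting and annotation release are not given in the sources used here. The deposited values are CPM and sum to 1000000 in each library, with no factor between libraries found in them. All values were whole multiples of 1 step per library (within 0.01 read), which gives 32064384 to 37551057 reads a library if a step is 1 read; a value of 3 reads, the most a count of 0 allows, is 0.080 to 0.094 CPM and covers counting error only.

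Differences were tested with limma 3.58.1 (R 4.3.3), with a mean-variance trend in eBayes, on log2(CPM + 0.1). The 17126 genes that reached 2.2 CPM in 2 or more libraries of a group entered, with Benjamini-Hochberg adjustment over all of them and calls at an FDR of 0.01; fold changes on this scale understate those of low genes. SE is the standard error of the log2 fold change. P-values measure the spread between single mice. The fit was tested on simulated data. Symbols, types and coordinates came from GENCODE M39 on GRCm39 (17045 of 17127 genes found). Fingers (2 cysteines with 2 residues between them, 12 residues, 2 histidines 3 to 5 apart), KRAB patterns, protein identity (Biopython 1.88, global alignment) and recurring exonic stretches of read length, matched exactly on either strand, were computed from that genome with Python 3.11.15.

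The members, lists and tests were chosen with earlier results of these data known. The genes named are Zfp990 and all genes of the table within 2 Mb of it, the 10 members with the largest called changes in each direction among those without overlap, the 5 with the highest wild-type level per kb, the highest and lowest of each cluster of 3 or more, Zfp820, the 17 genes of the co-repressor list and members with an outlying wild-type library; others were named after their values were seen. Marker lists cover Leydig, Sertoli, peritubular myoid, macrophage, endothelial, spermatogonia, spermatocyte, round and elongating spermatid cells. Alternatives were pseudocounts of 1 and 0.01, no minimum or 5 CPM, median-of-ratios size factors, TMM factors, the replicate number as a block, an FDR of 0.05, other cluster gaps and each library left out.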

Additional observations from a re-analysis of the deposited data

Results flagged for a closer look

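In 8 of the 131 members (6.11%) 1 of the 4 wild-type libraries lay far from the other 3, by a test of the largest gap over the range that flags about 1 in 20 groups without any difference. The groups of 3 mutants cannot be tested in this way. Wild type 3 was low in Zfp692 (8.46 CPM, the others 9.77 to 9.93) and Zfp707 (6.03 CPM, the others 6.88 to 6.93), and high in Zfp609 (63.1 CPM, the others 56.0 to 57.0) and Zfp677 (4.38 CPM, the others 3.30 to 3.41). Wild type 4 was low in Zfp768 (36.7 CPM, the others 42.4 to 42.8) and high in Zfp958 (4.90 CPM, the others 4.37 to 4.41). Wild type 2 was high in Zfp998 (6.76 CPM, the others 5.14 to 5.33), and wild type 1 was low in Zfp763 (2.60 CPM, the others 3.47 to 3.52). Of these 8, Zfp998 (lower in mutants) and Zfp707 (higher) were called by limma, and the call on Zfp707 (log2 fold change 0.36) was lost without wild type 3 (0.32) and without any of the 3 mutants (0.36 to 0.38). Zfp677 (0.34, FDR 0.039) was called without wild type 3 (0.43, FDR 0.0097).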

How the results depend on the processing

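The counts of members depended on scaling and on single mutants: 27 were called higher and 18 lower with size factors, 18 lower with TMM factors, and leaving out 1 library gave 39 to 53 called, 29 to 44 of them higher (29 without mutant 2) and 7 to 10 lower. Co-repressor calls fell from 6 to 3 with size factors, TMM factors or the replicate number as a block, and ran from 2 to 8 with 1 library left out. Zfp990 was called as lower under every alternative run, at -6.19 to -4.145.

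Over 100 named genes and 1382 values, 1217 kept direction and side of the threshold, 99 lost and 29 gained a call, and 37 changed sign, none of them in a called gene. With size factors these were Zfp768 (-0.068), Zfp609 (-0.058), Zfp667 (-0.073), Zfp653 (-0.036), Zfp809 (-0.010), Smarca5-ps (-0.082), Mphosph8 (-0.106) and Morc2a (-0.010). With TMM factors they were Zfp768 (-0.054), Zfp609 (-0.045), Zfp667 (-0.059), Zfp653 (-0.022), Smarca5-ps (-0.069) and Mphosph8 (-0.093). With the replicate block they were Gm13231 (0.001) and Gm13034 (0.003). With 1 library left out, signs changed in Zfp692 (-0.069 to 0.010), Zfp936 (-0.267 to 0.194), Zfp820 (-0.227 to 0.140), Smarca5-ps (-0.013 to 0.098), Gm13231 (-0.087 to 0.031), Gm13034 (-0.084 to 0.033), Gm13241 (-0.062 to 0.543), Gm13140 (-0.014 to 0.317), Mphosph8 (-0.019 to 0.078) and Zfp57 (-0.099 to 0.032). The cause was not tested.

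Same-numbered libraries did not deviate together (correlations 0.026, 0.009 and -0.098), so the numbers were not taken to pair mice. The block called 48 members, 46 of the 54 called without it. The planned count models of edgeR and DESeq2 were not run. Depth limits the lowest members, since 1 CPM stands for 32.1 to 37.6 reads.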
